A study of Mus musculus with 18 samples.

Results

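The 9 genes described here, Mbp, Pmp22, Prx, Mag, Mal, Egr2, Drp2, Ugt8a and Gldn, are genes used by myelinating Schwann cells, the glia that wrap axons of peripheral nerves. They were taken by name from a file of 22021 genes measured in mouse dorsal root ganglia, and all 9 were listed and tested. The study recovered ribosome-bound RNA from nociceptors, the sensory neurons that signal damage, by translating ribosome affinity purification (TRAP). Nav1.8cre mice on a C57BL/6J background were crossed to Rosa26fsTRAP mice, so that every animal, normal or treated, expressed the ribosomal protein L10a fused to EGFP in cells in which the Scn10a (Nav1.8) promoter had driven Cre. Schwann cells are not the target of that promoter. From each ganglion homogenate, male and female littermates of 8 to 12 weeks, 200 µl was kept as input and 800 µl went to beads carrying anti-GFP antibodies. Biosamples 1 to 4 were normal and biosamples 5 to 8 came from paclitaxel-treated mice, and each gave an input and a TRAP value, so there were 4 groups of 4. The drug, used in chemotherapy and acting on microtubules, was injected intraperitoneally 4 times over 8 days at 4 mg/kg, 16 mg/kg in total. The protocol also describes vehicle-injected animals, and the labels do not say whether the animals called normal were among them. Biosample 7 was sequenced as 2 subsamples, which were averaged, so 18 libraries gave 16 values per gene. The sources used here do not give the number of animals behind a biosample, so the p-values measure the spread between these samples only.

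A myelinating Schwann cell wraps a single axon segment in many layers of its own membrane. Compact myelin is held together by membrane and cytoplasmic proteins such as those encoded by Mbp and Pmp22, and it is rich in cholesterol and galactolipids. The uncompacted parts carry the proteins that face the axon (Mag), anchor the outer surface to the basal lamina (Prx and Drp2) and gather sodium channels at the node of Ranvier (Gldn), and the transcription factor Egr2 drives the programme together with Sox10. Unmyelinated fibres, to which most nociceptors belong, are held by other Schwann cells that make no myelin. Several of the genes, among them Mbp, Mag, Mal and Ugt8a, are also used by oligodendrocytes, the myelinating glia of the central nervous system.

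The promoter of Mag is shown because it was the only one in which a searched motif was found. In the RefSeq table for GRCm38.p6, 16 promoters belonged to 7 of the 9 genes, and the 250 bases before each start were searched on both strands for GCGNGGGCG, a form of the EGR site, and for ACAAAG and ACAATG, words bound by SOX factors. The SOX words differ in a single letter, so no site counts for both. ACAAAG was found, on the opposite strand, in 2 of the 3 Mag promoters, which share this stretch of sequence. The 150 bases before the first Mag start, chr7:30914864-30915013 on the minus strand, read 5′ to 3′ with the word in capitals as its reverse complement, 126 bases before the start:
Mag: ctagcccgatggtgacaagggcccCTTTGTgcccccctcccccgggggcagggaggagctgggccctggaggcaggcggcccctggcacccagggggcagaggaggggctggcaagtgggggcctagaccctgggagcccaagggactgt
Among 32851 promoters in the table, GCGNGGGCG was held by 4.7%, ACAAAG by 16.5% and ACAATG by 10.7%. The match describes these letters and no binding was measured.

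Levels are given in CPM, the reads of a gene scaled to the same total over the listed genes in every library. The reads come from the 3′ ends of transcripts and are not divided by length. The libraries held 4266007 to 32713517 reads over the listed genes. Inputs listed 13152 to 14043 genes at 1 CPM or more, and pulldowns listed 8081 to 13228, with the lowest number in subsample 1 of biosample 7. Markers of nociceptors summed to 3736 to 5972 CPM in the inputs and 6639 to 9247 CPM in the pulldowns. Much of the sum in the normal pulldowns was Prph, at 2925 to 7460 CPM, so the sum says little about the other markers there. Scn10a rose in the pulldown by 0.59 on the log2 scale in normal ganglia and by 1.30 in paclitaxel ganglia (adjusted p = 0.0267 and 6.81e-05, limma). Of the 10 nociceptor markers 2 rose and 2 fell in normal ganglia, those that fell being Calca (-0.94) and Trpv1 (-1.14), and 6 rose and 0 fell in paclitaxel ganglia. Of the 10 oligodendrocyte markers, Opalin, Olig2 and Klk6 were at 0 in every pulldown, and the 10 summed to 40.2 to 126 CPM in the inputs, most of it Cldn11 with a mean of 58.1 CPM.

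In the inputs the 9 genes fell into levels far apart. Pmp22 had a mean of 1646 CPM over the 8 biosamples and Mbp 994 CPM, and their ranges overlapped. Drp2 (196 CPM), Mal (191 CPM), Ugt8a (142 CPM) and Prx (115 CPM) followed as a block whose ranges overlapped from each to the next and did not reach Mbp. Mag (37.2 CPM) and Gldn (28.0 CPM) overlapped each other and lay below Prx, and Egr2 was lowest at 13.2 CPM, below Gldn in every input. Together the genes made 2760 to 4700 CPM in the normal inputs and 3034 to 3827 CPM in the paclitaxel inputs. In the pulldowns the sums were 909 to 1927 CPM and 1362 to 1510 CPM, with no overlap with the inputs in either treatment. Mbp and Pmp22 made up 67.8% to 89.9% of the sum in each of the 16, so the sum says little about the other 7 genes.

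**Figure D1:**
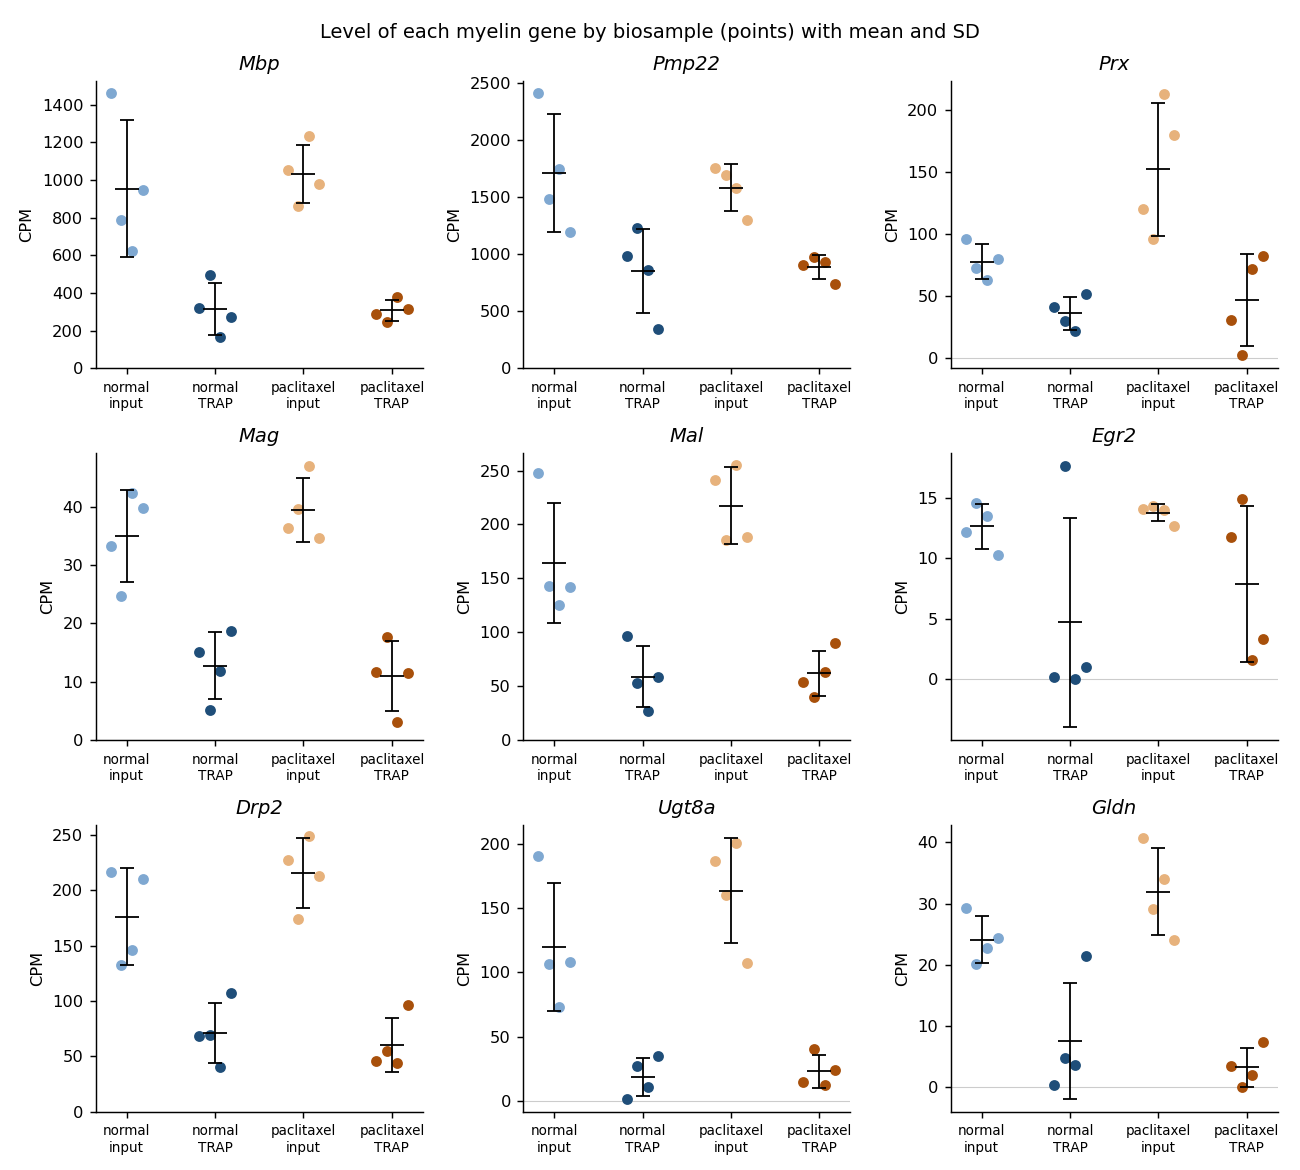
Level of each myelin gene (CPM, linear axis, 1 panel per gene) in the 4 groups. Points are biosamples, the long bar is the mean and the whiskers are ± SD (n = 4); the pulldown points lie below the input points in most panels, while Egr2 pulldowns reach from 0 to 17.6 CPM, across the input range.

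The first question was how the share of each myelin gene differed between the input and the pulldown of a ganglion homogenate. In normal ganglia all 9 genes fell from input to TRAP, with log2 changes between -1.10 for Pmp22 and -3.10 for Ugt8a (limma, biosample as a block, adjusted p under 0.05). Among the 14214 genes tested, 24.7% fell and 5.09% rose, 29.8% in all, and the median change was -0.66 against -1.55 for the 9 genes. In paclitaxel ganglia 8 of 9 fell and Egr2 did not pass. There 23% of all tested genes fell and 4.92% rose, 27.9% in all, and the medians were -0.56 over all genes and -1.88 over the 9. All values are shares of a library, so a lower value is a lower share of the pulled-down RNA. When these bulk samples are compared between treatments, fewer cells of a type and less RNA per cell cannot be told apart.

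The genes of compact myelin and its membrane come first. Mbp encodes the basic protein that seals the cytoplasmic faces of the membrane (GRCm38, chromosome 18, 82475146 to 82585637, plus strand). Its normal inputs held 1462, 787, 621 and 949 CPM and the matching pulldowns 321, 496, 167 and 270 CPM. The paclitaxel inputs held 1053, 862, 1234 and 980 CPM and their pulldowns 286, 247, 381 and 313 CPM. Every pulldown lay below every input, by a factor that differed little between biosamples apart from biosample 2, where the pulldown was the highest of all 8. The log2 change was -1.64 ± 0.202 (SE) in normal and -1.75 ± 0.202 in paclitaxel ganglia (adjusted p = 5.03e-06 and 3.37e-06, limma). Mbp stayed past the threshold under all 21 alternative settings in both treatments.

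Pmp22 encodes a tetraspan protein of compact myelin whose dosage is tightly held and whose duplication causes a human neuropathy (chromosome 11, 63128982 to 63159547, plus strand). It was measured at 2413, 1482, 1749 and 1196 CPM in the normal inputs and at 981, 1225, 858 and 346 CPM in their pulldowns. In paclitaxel ganglia the inputs held 1758, 1691, 1581 and 1295 CPM and the pulldowns 905, 978, 932 and 734 CPM. The normal groups overlapped, since the pulldown of biosample 2 exceeded the input of biosample 4, and the paclitaxel groups did not. Pmp22 had the smallest changes of the 9, -1.10 ± 0.196 and -0.83 ± 0.196 (adjusted p = 0.000294 and 0.00388, limma). With edgeR on recovered reads neither passed (-0.58 and -0.46, adjusted p = 0.135 and 0.219), and with median-ratio scaling the paclitaxel change did not pass (-0.51, adjusted p = 0.083). The paclitaxel call held under 17 of 21 alternatives, and was also lost with no trend and with no block.

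Mal encodes a small membrane protein that sorts lipids and proteins into myelin (chromosome 2, 127633226 to 127656695, minus strand). Its normal inputs were at 247, 143, 125 and 142 CPM, the first of them well apart from the other 3, and the pulldowns at 96.1, 52.7, 27.1 and 58.6 CPM. The paclitaxel inputs were at 241, 186, 255 and 188 CPM and the pulldowns at 54.1, 40.2, 63.3 and 90.0 CPM. Inputs and pulldowns did not overlap in either treatment. The log2 changes of Mal were -1.55 ± 0.245 and -1.84 ± 0.245 (adjusted p = 8.52e-05 and 1.96e-05, limma), and both calls held under all 21 alternatives.

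Ugt8a encodes the transferase that makes galactocerebroside, the main galactolipid of myelin (chromosome 3, 125865271 to 125938619, minus strand). It was at 190, 106, 73.2 and 108 CPM in the normal inputs and at 1.60, 26.7, 10.9 and 34.7 CPM in their pulldowns. The paclitaxel inputs held 187, 160, 200 and 107 CPM and the pulldowns 14.3, 40.6, 11.9 and 24.3 CPM. No pulldown reached the lowest input, and the pulldown of biosample 1 was far below all others. The falls were the largest of the 9 in normal ganglia, -3.10 ± 0.503, and second to Gldn in paclitaxel ganglia, -2.91 ± 0.503 (adjusted p = 0.000109 and 0.000325, limma). Without biosample 1 the normal fall was -2.07 and still passed (adjusted p = 0.00082). Of 22 other genes of myelin lipid and cholesterol synthesis, 9 fell in normal ganglia and 5 fell in paclitaxel ganglia. Those with the highest input levels show the mixture. The cholesterol enzyme gene Hmgcs1 changed by -0.56 in normal ganglia (adjusted p = 0.022, limma) and by -0.30 in paclitaxel ganglia (adjusted p = 0.21). The fatty acid desaturase gene Scd2 fell (-0.77 and -0.49), as did its relative Scd1 (-0.73 in both). The sphingolipid desaturase gene Degs1 was at -0.43 and 0.16 and did not pass.

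The gene facing the axon was Mag, for a sialic acid-binding adhesion protein of the innermost wrap (chromosome 7, 30899176 to 30914873, minus strand). Mag was at 33.2, 24.6, 42.4 and 39.9 CPM in the normal inputs and 15.1, 5.18, 11.8 and 18.8 CPM in the pulldowns. It was at 36.4, 39.7, 47.1 and 34.6 CPM in the paclitaxel inputs and 11.7, 17.7, 3.04 and 11.4 CPM in the pulldowns. All pulldowns were below all inputs, and biosamples 2 and 7 gave the lowest pulldowns. The log2 changes of Mag were -1.49 ± 0.476 and -1.94 ± 0.476 (adjusted p = 0.0224 and 0.00507, limma). The normal call held under 14 of 21 alternatives. It was lost without biosample 2 or 3 (adjusted p = 0.0739 and 0.0851, limma). Median-ratio scaling, quantile normalization and edgeR also lost it (adjusted p = 0.111, 0.124 and 0.216). So did subsample 1 of biosample 7 alone and leaving out biosamples 1, 2, 5 and 6. The paclitaxel call held under 19 of 21. It was lost without biosample 7 (-1.40, adjusted p = 0.0539, limma) and with edgeR (adjusted p = 0.0696).

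Prx and Drp2 belong to 1 complex: periaxin, the PDZ protein encoded by Prx, binds dystrophin-related protein 2 and links it to dystroglycan at the outer surface of the wrap. Prx lies on chromosome 7, 27499324 to 27520214, plus strand. An antisense gene, Gm15541, overlaps its exons in GENCODE vM21, and whether the counting used strand is not stated, so reads of the pair cannot be told apart. Prx was at 96.2, 72.5, 63.2 and 79.5 CPM in the normal inputs and 40.8, 29.5, 21.7 and 51.7 CPM in the pulldowns. The paclitaxel inputs were higher and more spread, at 121, 95.8, 213 and 180 CPM, and the pulldowns stood at 30.9, 2.26, 71.9 and 82.5 CPM. Within each treatment the pulldowns lay below the inputs, and the pulldown of biosample 6 was far below the other 3. The falls were -1.15 ± 0.405 in normal and -2.37 ± 0.405 in paclitaxel ganglia (adjusted p = 0.0357 and 0.000301, limma). The normal call was lost under 11 of 21 alternatives, among them without biosample 1, 2 or 3 (adjusted p = 0.1, 0.091 and 0.12). The paclitaxel call held under all 21, with -1.53 without biosample 6.

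Drp2 lies on chromosome X, 134404551 to 134456573, plus strand. It was at 217, 132, 146 and 211 CPM in the normal inputs and 68.8, 69.3, 40.8 and 107 CPM in the pulldowns. The paclitaxel inputs were at 227, 174, 249 and 213 CPM and the pulldowns at 46.2, 54.8, 43.9 and 96.3 CPM. The groups were apart in both treatments, and biosamples 4 and 8 had the highest pulldowns of their groups. Drp2 changed by -1.34 ± 0.25 and -1.88 ± 0.25 (adjusted p = 0.000456 and 1.91e-05, limma). With subsample 1 in place of the average for biosample 7 the normal call was lost (adjusted p = 0.106). The list of the dystroglycan complex and laminin receptors also held the laminin genes Lama2, Lamb1 and Lamc1. Of its 12 tested genes 11 fell and 1 rose in normal ganglia, and 9 fell and 0 rose in paclitaxel ganglia. The dystrophin relative Utrn fell by 1.00 in normal ganglia and fell by 0.86 in paclitaxel ganglia. The laminin receptor subunit gene Itga6 (-1.23 and -1.44) and the dystrobrevin gene Dtna (-1.25 and -1.02) fell in both. Itgb1, whose integrin subunit neurons also use, was the gene that rose, by 1.27 in normal ganglia (adjusted p = 1.81e-05, limma), and it was at 0.43 in paclitaxel ganglia (adjusted p = 0.0717).

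Gldn encodes gliomedin, which Schwann cell microvilli present to the axon to gather sodium channels at the node (chromosome 9, 54268578 to 54341786, plus strand). An antisense gene lies within its locus with no shared exon. Gldn was at 29.2, 20.2, 22.7 and 24.4 CPM in the normal inputs and 0.45, 4.81, 3.56 and 21.4 CPM in the pulldowns. The paclitaxel inputs held 40.8, 29.1, 34.0 and 24.0 CPM and the pulldowns 3.54, 0.03, 2.04 and 7.47 CPM, the 0.03 CPM of biosample 6 being 1 read. The normal pulldown of biosample 4 stood inside the input range and the other 7 pulldowns far below it. The falls were -2.20 ± 0.683 and -3.29 ± 0.683 (adjusted p = 0.0192 and 0.00161, limma), the second the largest of the 9 in paclitaxel ganglia. The normal call held under 12 of 21 alternatives. It was lost without biosample 1 (-1.47, adjusted p = 0.152, limma) or biosample 3 (adjusted p = 0.0654). Median-ratio scaling, quantile normalization and edgeR also lost it (adjusted p = 0.0536, 0.0808 and 0.207). So did a pseudocount of 0.1, testing without a filter, subsample 1 of biosample 7 alone, and leaving out biosamples 1, 2, 5 and 6. Without biosample 4 the normal change was -2.88. The paclitaxel call held under all 21 alternatives. Of 13 genes of nodal, paranodal and internodal adhesion, most of which neurons express too, 4 fell and 1 rose in normal ganglia and 4 fell and 2 rose in paclitaxel ganglia. The ankyrin gene Ank3 (-0.66 and -0.68) and the axonal contactin gene Cntn1 (-1.67 and -1.11) fell in both treatments, and the adhesion gene Cadm3 rose in both (0.62 and 0.78). Cadm1, of the same adhesion family, was at 0.33 in normal ganglia (adjusted p = 0.145) and rose by 0.93 in paclitaxel ganglia (adjusted p = 0.00069, limma).

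Egr2, also called Krox20, encodes the zinc-finger factor without which Schwann cells stop before myelination (chromosome 10, 67535475 to 67542188, plus strand). Its inputs were the tightest of the 9, at 12.2, 14.6, 13.5 and 10.3 CPM in normal and 14.1, 14.3, 14.0 and 12.7 CPM in paclitaxel ganglia. The normal pulldowns held 0.20, 17.6, 0 and 1.00 CPM, that is 4, 473, 0 and 6 reads, and 0 reads in biosample 3 allow up to 0.155 CPM at the 3-read floor. The paclitaxel pulldowns held 11.7, 14.9, 1.62 and 3.31 CPM. The pulldowns of biosamples 2 and 6 exceeded their own inputs, that of biosample 5 was close to its input, and the other 5 were lower. Egr2 fell by 2.39 ± 0.721 in normal ganglia (adjusted p = 0.0165, limma). That call held under 15 of 21 alternatives. It was lost without biosample 1 or 3 (adjusted p = 0.0859 and 0.105, limma). Quantile normalization and edgeR also lost it (adjusted p = 0.0949 and 0.114). So did testing without a filter and subsample 1 of biosample 7 alone. Without biosample 2 the normal change was -3.27. In paclitaxel ganglia the change was -1.10 ± 0.721 (adjusted p = 0.258), and no alternative called it. Of 18 tested Schwann cell transcription factors and cofactors, 13 fell in normal and 10 in paclitaxel ganglia, and 0 rose. The injury factor gene Jun (-0.60 and -0.75), Zeb2 (-0.70 and -1.15) and Nab1, whose product binds Egr2 (-1.46 and -0.96), fell in both. Srebf2, the regulator of cholesterol genes, was at -0.03 and 0.23 and did not pass.

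Other structural myelin genes set the scale. Of 12 further myelin membrane genes, 8 fell in normal and 10 in paclitaxel ganglia and 0 rose, with medians of -1.74 and -1.76. Cryab, for a small heat shock protein found in myelin, fell in both (-2.11 and -1.74). The tetraspanin gene Cd9, which neurons express as well, was at -0.24 and 0.45 and did not pass. Of 16 genes of myelination signals and related functions, 8 fell in normal and 10 in paclitaxel ganglia. The lysophosphatidic acid receptor gene Lpar1 (-1.72 and -1.80) and Ndrg1, mutated in a human demyelinating neuropathy (-0.78 and -1.30), fell in both. Adam22, whose product receives the Schwann cell ligand Lgi4 in mouse, was at -0.96 (adjusted p = 0.018, limma) and -0.47 (adjusted p = 0.233), and the scaffold gene Gab1 fell in both (-1.11 and -1.14). No gene of these lists that passed turned its sign under median-ratio scaling, quantile normalization or edgeR. From input to TRAP, none of the lists had more genes lower there than in the main fit, and some had more genes higher. With edgeR 6 of 12 myelin membrane genes fell in normal and 8 in paclitaxel ganglia. The dystroglycan list had 4 and 2 of 12, the transcription factors 3 and 5 of 18, and the signals 1 and 5 of 16. Over all 14214 tested genes edgeR called 612 lower in normal and 767 in paclitaxel ganglia, against 3509 and 3264 in the main fit. The lipid list had 2 lower with edgeR in normal ganglia and 1 in paclitaxel ganglia, and its median turned from -0.26 to 0.11 in the latter. The adhesion list had 2 lower and 2 higher with edgeR in normal ganglia. In paclitaxel ganglia its balance turned, from 4 lower and 2 higher in the main fit to 1 lower and 4 higher with edgeR.

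**Figure D2:**
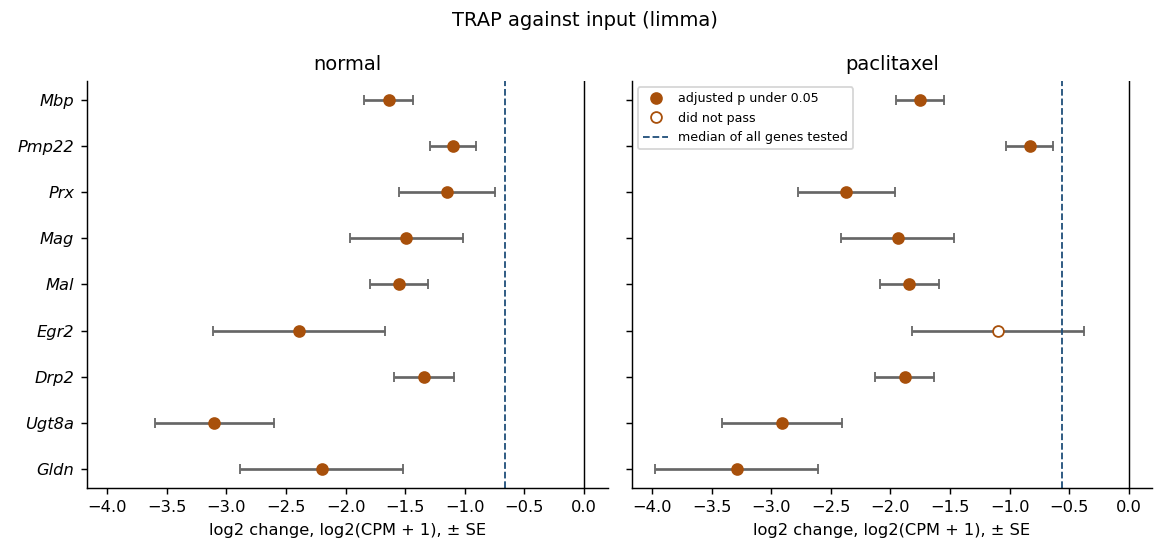
Log2 change from input to TRAP of each gene on the log2(CPM + 1) scale, normal at left and paclitaxel at right, with ± SE whiskers. Filled points have an adjusted p under 0.05; the dashed line is the median of all tested genes, -0.66 and -0.56. All 18 points lie to the left of that line, and only Egr2 in paclitaxel ganglia is open.

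Markers of other cells of the ganglion were measured beside the myelin genes. The 11 satellite glia markers summed to 1103 to 2884 CPM in the inputs and 602 to 1432 CPM in the pulldowns, with 8 of 11 lower in each treatment. The 6 fibroblast markers summed to 1775 to 4298 CPM and 373 to 880 CPM, with 5 of 6 lower. The 7 macrophage markers summed to 77.7 to 187 CPM and 20.6 to 75.7 CPM, with 3 lower in normal and 4 in paclitaxel ganglia. The median changes were near those of the 9 genes (-1.55 and -1.88). They were -1.66 and -1.77 for satellite glia, -1.71 and -2.24 for fibroblasts and -1.43 and -1.82 for macrophages. Of 7 large-fibre neuron markers 5 fell in normal and 7 in paclitaxel ganglia and 0 rose, with medians of -1.31 and -1.41. The markers of non-myelinating and immature Schwann cells did not follow this order: their medians were -0.48 in normal and -0.33 in paclitaxel ganglia, above those of all genes. The 7 summed to 1138 to 1338 CPM in the inputs and 758 to 1540 CPM in the pulldowns, with 2 lower in each treatment and 2, L1cam and Ngfr, higher in paclitaxel ganglia. Neurons also express several of those. The oligodendrocyte markers summed to 8.83 to 43.3 CPM in the pulldowns, and 1 of the 6 tested fell in normal and 3 in paclitaxel ganglia. The part of any of these cells in the levels of the 9 genes was not tested.

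Taken within each biosample, the pulldown levels were a steady fraction of the input for some of the genes and an erratic one for others. The ratio was computed on CPM + 1, with the subsamples of biosample 7 averaged, and compares shares of libraries, not amounts of RNA recovered. For Mbp the pulldown was 28.6% of its input (median of 8 biosamples, range 22% to 63.1%), for Mal 31.2% (22% to 48.1%) and for Drp2 32.0% (18% to 52.7%). Pmp22 had the highest median, 54.1% (29% to 82.7%). Prx stood at 38.5% (3.37% to 65.5%) and Mag at 34.5% (8.39% to 48.3%). Ugt8a at 19.8% (1.36% to 32.6%) and Gldn at 15.1% (3.42% to 88.4%) were lowest. Egr2 had a median of 24.6% and a range of 6.91% to 119%. The added 1 raises the ratios of genes with few pulldown reads. Without it the medians were 18.9% for both Egr2 and Ugt8a and 12.2% for Gldn, and the lowest Egr2 ratio was 0%. The pulldown was below its own input in all 8 biosamples for every gene but Egr2, where it was below in 6 of 8. Lower levels in TRAP were common: the limma change was below 0 for 76.1% of all tested genes in normal and 72.6% in paclitaxel ganglia.

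The genes did not keep 1 order across pulldowns. In biosample 1 the ratios ran from 1.36% for Ugt8a to 47.1% for Mag. In biosample 4 they ran from 17.7% for Egr2 to 88.4% for Gldn, and only 2 genes had a ratio below that of Pmp22, against 6 to 8 in the other biosamples. In biosample 6 they ran from 3.37% for Prx to 104% for Egr2. Without the added 1 the lowest ratio of biosample 6 was that of Gldn, 0.103% from 1 read, beside 2.36% for Prx. On CPM + 1 the gene with the lowest ratio was Ugt8a in 4 biosamples, Egr2 in 2, Mag in 1 and Prx in 1. The coefficient of variation over the 8 pulldowns was 29.1% for Pmp22, 31.4% for Mbp, 37.5% for Drp2, 38.5% for Mal, 46.8% for Mag, 63.9% for both Prx and Ugt8a, 115% for Egr2 and 127% for Gldn. In the inputs it was 24.1% for Gldn and 10.8% for Egr2.

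**Figure D3:**
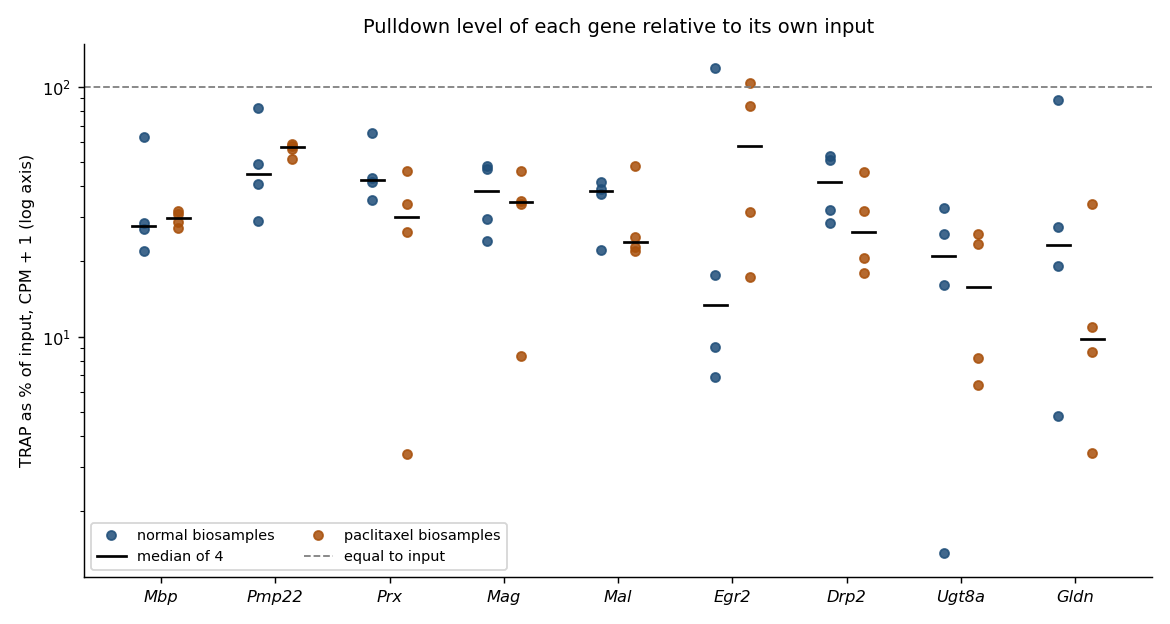
Pulldown level of each gene as a percentage of its own input (CPM + 1, log axis) in normal (blue) and paclitaxel (orange) biosamples; the short bar is the median of 4 and the dashed line marks equality. Mbp, Pmp22, Mal and Drp2 are narrow, while Egr2 spans 6.91% to 119% and Ugt8a has 1 normal biosample at 1.36%. The subsamples of biosample 7 are averaged here, and for Drp2 they stood at 0.84% and 29.2%.

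The subsamples of biosample 7 also differed, and averaging them hides part of that spread. On CPM + 1 the Drp2 pulldown was 0.84% and 29.2% of its input in the 2 subsamples, beside 18% in the average. For Mag the ratios were 1.98% and 17.0%, beside 8.39%. The inputs were alike for some genes: Mal was at 256 and 254 CPM, Ugt8a at 206 and 195 CPM, and Gldn at 36.8 and 31.1 CPM. Other inputs were less alike, with Drp2 at 197 and 301 CPM and Prx at 182 and 245 CPM. The pulldowns were much further apart for several genes. Subsample 1 held 0.66 CPM of Drp2, 1.03 CPM of Ugt8a, 0.09 CPM of Mag (1 read) and 0 reads of Gldn and Egr2, while it held 272 CPM of Mbp, 1212 CPM of Pmp22 and 83.6 CPM of Prx. Subsample 2 held 87.1 CPM of Drp2, 22.7 CPM of Ugt8a, 5.98 CPM of Mag, 4.07 CPM of Gldn and 3.24 CPM of Egr2. It held 489 CPM of Mbp, and less Pmp22 and Prx than subsample 1, at 652 and 60.25 CPM. So genes that were present together in the input were present and near absent side by side in 1 pulldown library. Subsample 1 listed 8081 genes at 1 CPM or more and subsample 2 listed 11945, and the part of this difference in the values was not tested.

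The next question was whether the step from input to TRAP differed between paclitaxel and normal ganglia. None of the 9 genes passed the interaction test of limma, where 0.19% of tested genes did, and 1 had an unadjusted p under 0.05. That was Prx, whose step differed by -1.22 ± 0.573 (paclitaxel minus normal, adjusted p = 0.422, limma), and by -0.38 without biosample 6. edgeR called 0 of all genes tested in the interaction, so its 0 of 9 says nothing of these genes. The other 8 differences lay between -1.09 ± 0.966 for Gldn and 1.29 ± 1.02 for Egr2, and the error of each of those was about as large as the difference. For Mbp and Pmp22 the errors were smaller, with differences of -0.12 ± 0.286 and 0.26 ± 0.277. Drp2 stood at -0.55 ± 0.354, Mag at -0.46 ± 0.673, Mal at -0.29 ± 0.347 and Ugt8a at 0.19 ± 0.711.

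In the pulldowns themselves, paclitaxel against normal, 0 of 9 genes passed, with 0 at an unadjusted p under 0.05 and 0 by edgeR, where limma called 1.82% of tested genes. The change of Mbp was 0.06 ± 0.308 and that of Pmp22 0.19 ± 0.342. The largest was that of Egr2, 1.42 ± 1.06 (adjusted p = 0.544, limma), whose 4 paclitaxel pulldowns lay inside the range of the 4 normal ones. Gldn was at -0.71 ± 1.01, Ugt8a at 0.69 ± 0.815 and Prx at -0.32 ± 0.823. Mag stood at -0.27 ± 0.764, Drp2 at -0.24 ± 0.373 and Mal at 0.15 ± 0.407. The pulldowns of Prx did not keep a direction, since without biosample 6 the change was 0.72.

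In the inputs, paclitaxel against normal, 0 of 9 passed limma and 0 passed edgeR, where limma called 1.64% of tested genes, and 1 had an unadjusted p under 0.05. Prx had the largest change, 0.91 ± 0.252 on the log2 scale (adjusted p = 0.0806, limma, and 0.0349 to 0.298 over 20 alternatives). The means were 77.8 ± 13.9 CPM in normal and 152 ± 53.7 CPM in paclitaxel inputs (SD, n = 4), and the groups touched, with biosample 1 at 96.2 and biosample 6 at 95.8 CPM. The gene passed without biosample 6 (1.10, adjusted p = 0.0431) and without biosamples 1, 2, 5 and 6 (1.45, adjusted p = 0.0349). Its partner Drp2 was at 0.31 ± 0.216 (adjusted p = 0.459), with overlapping groups.

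The other genes were closer to 0. Ugt8a was at 0.50 ± 0.279 (adjusted p = 0.352), Mal at 0.44 ± 0.232 and Gldn at 0.38 ± 0.23. Mag was at 0.18 ± 0.224, Mbp at 0.17 ± 0.264, Egr2 at 0.12 ± 0.231 and Pmp22 at -0.07 ± 0.255. The median over the 9 was 0.31, beside 0.14 over all tested genes. Among the listed genes around them, 2 of 12 in the dystroglycan and laminin receptor list rose in the paclitaxel inputs, and they are named after their values were seen, as are Adam17, Slc1a3, Uchl1, L1cam and Ngfr. Dag1, for dystroglycan, lay between 56.5 and 120 CPM in the normal inputs and between 137 and 181 CPM in the paclitaxel inputs, a change of 1.00 (adjusted p = 0.0489, limma). Itgb4, for the laminin-binding integrin subunit of mature Schwann cells, lay between 4.08 and 7.97 CPM and between 11.6 and 27.1 CPM, a change of 1.61 (adjusted p = 0.0248). Neither had overlapping groups. Of 16 myelination signal genes 1, the protease gene Adam17, rose, by 1.10 (adjusted p = 0.0479). Dag1 and Adam17 did not pass under median-ratio scaling (adjusted p = 0.0628 and 0.0695), quantile normalization (0.055 and 0.0737) or edgeR (0.0917 and 0.0843). Itgb4 passed under median-ratio scaling and edgeR (adjusted p = 0.0377 and 0.0461) and did not under quantile normalization (0.052). None of the other myelin membrane, lipid, adhesion or transcription factor genes passed. In the same inputs 2 of 11 satellite glia markers rose, Fabp7 and Slc1a3, by 1.99 and 1.69 (adjusted p = 0.0226 and 0.0237, limma). Of 8 general neuron markers 1 fell, Uchl1, by 1.14 (adjusted p = 0.0482), and it did not pass under quantile normalization (0.163). The large-fibre neuron markers summed to 1287 to 1607 CPM against 859 to 1212 CPM in the normal inputs, and 0 of 7 passed. Much of that sum was Nefh, at 617 to 926 CPM against 343 to 552 CPM in the normal inputs. The median change of the 7 was 0.56, and only Spp1 was lower (-0.51). The part of any of these cells in the levels of the myelin genes was not tested.

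**Figure D4:**
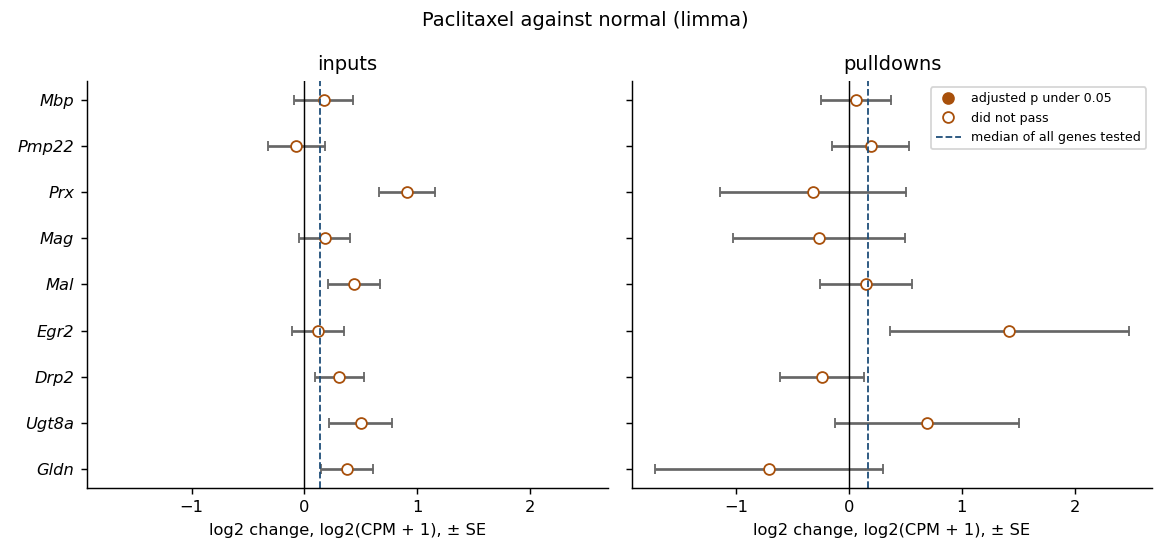
Log2 change of each gene from normal to paclitaxel on the log2(CPM + 1) scale, with ± SE whiskers, in the inputs (left) and the pulldowns (right); the dashed line is the median of all tested genes, 0.14 and 0.17. No point is filled, since none passed; Prx stands apart in the inputs at 0.91 and the pulldown errors are wider.

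The genes whose levels ran most like the mean log level of the 9 were found by Pearson correlation among genes with a mean of at least 5 CPM, as a description. Over the 16 values, which mix inputs and pulldowns, they included Col1a2 (r = 0.985), Car2 (0.968), Sema3b (0.964), Tenm2 (0.961) and Qk (0.958). Col1a2, a fibroblast collagen gene, held 634 to 1323 CPM in the inputs and 109 to 239 CPM in the pulldowns. Over the 8 inputs alone the 6 most alike were Slc7a11 (0.966), Nid1 (0.963), Cd52 (0.962), Zfp626 (0.957), Dlg1 (0.948) and Angptl7 (0.938). Among the 9 themselves, each against the mean of the other 8 over the inputs, Mal (0.958), Ugt8a (0.878) and Gldn (0.856) ran closest together, while Egr2 (0.05), Mag (0.256) and Pmp22 (0.32) ran least with the rest. These values share the 8 libraries and their depths.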

How the data were processed

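The deposited values are CPM: the file headers say TPM, but each column sums to the same total and 97.98% to 99.0% of its values above 0 are whole multiples of 1 step, within 0.0051 CPM. Per the submitters' processing notes the tools were Cufflinks 2.2.1, Bowtie2 2.2.9, TopHat2 2.1.1 and FastQC 0.11.5, with GRCm38.p4 as genome, and GENCODE vM10 is named in the file headers. Whether counting used strand is not given in the sources used here. The step gives each library's reads, 4266007 to 32713517, and a floor of 3 reads, which covers counting error only. The 2 columns merged by the authors were not used.

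Of 22021 genes, the 14214 that reached 1 CPM in 4 or more of the 16 values were tested. limma 3.58.1 in R 4.3.3 was run on log2(CPM + 1), which understates changes of low genes, with intensity trend and Benjamini-Hochberg adjustment over all tested genes at 0.05. A single model with a block for biosample gave the TRAP to input contrasts and their interaction, since both fractions were taken from 1 homogenate; the deviations of paired libraries from their group means correlated at 0.053 to 0.376. Paclitaxel against normal was fitted in the 8 pulldowns and in the 8 inputs. The settings tried instead were a pseudocount of 0.1 or 5, testing without a filter or with one at 5 CPM, median-ratio and quantile scaling, no trend, robust estimation, either subsample of biosample 7, edgeR 4.0.16 (quasi-likelihood, TMM) on recovered reads, no block, each biosample left out, and biosamples 1, 2, 5 and 6 left out. The counts of the surrounding lists under the 3 scalings were added after the data were seen. The limma steps were tested on simulated data. The 9 genes, the lists around them and the tests were chosen with earlier results of these data known. All 9 genes are named in each comparison, with up to 4 genes of each surrounding list, those of highest input level, and the genes most like the mean of the 9; a few genes these rules choose are not reported here. Strands and overlaps came from GENCODE vM21 and promoters from RefSeq.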

Additional observations from a re-analysis of the deposited data

Results flagged for a closer look

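Among 36 groups of 4 biosamples, 9 genes in 4 groups, 2 values stood far from the other 3 of their group by Dixon's criterion, with gaps of 0.856 and 0.943 of the group's range. Chance alone would pick about 1 in 20 groups. The Mal level of the normal input of biosample 1 was 247.46 CPM, where the other 3 held 124.88 to 142.54 CPM. Mbp and Pmp22 were also highest among the normal inputs in that library, at 1462 and 2413 CPM. The Egr2 level of the normal pulldown of biosample 2 was 17.63 CPM, where the other 3 held 0 to 1.00 CPM.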

How the results depend on the processing

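All 9 genes were lower in TRAP than in input under every alternative in both treatments. Of all tested genes, 76.1% in normal and 72.6% in paclitaxel ganglia were lower in the main fit. Past the threshold under all 21 alternatives were 3 in normal ganglia (Mbp, Mal and Ugt8a) and 6 in paclitaxel ganglia (Mbp, Prx, Mal, Drp2, Ugt8a and Gldn). In normal ganglia 9 of 9 passed, but 5 with quantile normalization, 4 with subsample 1 of biosample 7 alone and 4 with edgeR. With 1 biosample left out 5 to 9 passed, with 5 without biosample 3. Calls over all genes fell too, from 4233 in the main fit to 2695, 2787 and 1864 in those settings, and to 3029 without biosample 3. The inputs and pulldowns are paired by homogenate. Without the block 8 and 7 of the 9 genes passed in normal and paclitaxel ganglia, where calls over all genes were 3287 and 3119. Prx (adjusted p = 0.182, limma) and Pmp22 (0.0526) were the calls lost. Scaling moved the whole distribution: the median of all genes was -0.66 and -0.56, -0.32 and -0.28 with median-ratio scaling, 0.0 and 0.04 with quantile normalization, and -0.44 and -0.36 with edgeR, where the 9 genes' medians were -1.11 and -1.57, -1.29 and -1.85, and -1.06 and -1.49. Of all calls in normal ganglia 17.1% were higher in TRAP, and 45.2%, 48.5% and 67.2% under those 3; in paclitaxel ganglia 17.6%, 39.4%, 47.6% and 59.9%. All genes called ranged from 1864 to 4356 in normal, 1845 to 4377 in paclitaxel, 0 to 86 in the interaction, 0 to 729 in the pulldowns and 0 to 831 in the inputs. The cause of these shifts was not tested.

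No gene passed in the interaction or the pulldowns under any alternative. In the inputs 0 to 1 passed with 1 biosample left out and 1 without biosamples 1, 2, 5 and 6, each time Prx. Signs of changes that did not pass turned as follows, in log2. Interaction: Ugt8a -0.05 with a pseudocount of 5, -0.32 with quantile normalization, -0.48 with subsample 1, -0.04 with edgeR, and -0.91, with Mbp 0.18 and Mal 0.19, without biosamples 1, 2, 5 and 6; with 1 biosample left out Ugt8a ran from -0.84 to 0.69, Mbp from -0.30 to 0.21 and Mag from -0.73 to 0.09. Pulldowns: Mbp -0.17, Pmp22 -0.04 and Mal -0.07 with median-ratio scaling, Mbp 0 and Mal -0.01 with quantile normalization, Mbp -0.06 and Mal -0.08 with subsample 1, Drp2 0.01 with subsample 2, Mbp -0.31, Pmp22 -0.22, Prx 0.12 and Mal -0.21 with edgeR, and Prx 1.17 and Ugt8a -0.19 without biosamples 1, 2, 5 and 6; with 1 biosample left out Mbp ran from -0.21 to 0.31, Pmp22 from -0.20 to 0.41, Prx from -0.84 to 0.72, Mag from -0.61 to 0.19, Mal from -0.17 to 0.43 and Ugt8a from -0.09 to 1.17. Inputs: Pmp22 0.01 and Egr2 -0.12 with quantile normalization, Mbp -0.04 and Egr2 -0.03 with edgeR, Mag -0.03 without biosamples 1, 2, 5 and 6; with 1 biosample left out Pmp22 ran from -0.23 to 0.11 and Mbp from -0.01 to 0.40.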
